A study of Mus musculus with 1536 samples.

Results

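The genes described here encode receptors for steroid and thyroid hormones. They were chosen by name and make up 7 of the 53263 genes in the deposited table: Esr1 and Esr2 (estrogen receptors alpha and beta), Pgr (progesterone receptor), Nr3c1 (glucocorticoid receptor), Nr3c2 (mineralocorticoid receptor), and Thra and Thrb (thyroid hormone receptors alpha and beta). All 7 were listed, and all had a read in at least 5% of cells. These receptors are ligand-dependent transcription factors. Estrogens, progesterone and corticosteroids cross the cell membrane, bind their receptor in the cytoplasm or nucleus and act with it on DNA, whereas thyroid hormone receptors sit on DNA with or without hormone. Serotonin neurons of the raphe are a known target of ovarian and adrenal steroids.

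The cells came from C57BL/6J mice aged 40 to 45 days that carried Cre under control of the serotonin transporter gene Sert (Slc6a4) together with Ai14, a reporter that makes tdTomato wherever Cre has acted, so a cell is labelled by Sert expression at any stage of its history. This genotype was shared by all groups. By the study's methods the mice were males and females, and each dissection took in several brains. The labels give neither the animal nor the sex of a cell. By the labels, sex and animal thus could not be told apart from plate or dissection, and sex was not inferred from expression. Single tdTomato+ cells were sorted into 96-well plates and made into Smart-seq2 libraries. Of 1536 labelled cells the table held 999, with 290 cells of the principal dorsal raphe (pDR) on 5 plates and 709 cells labelled as all of the dorsal raphe (all DR) on 11 plates, a dissection that by the study's methods also took in the caudal dorsal raphe and the median raphe.

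Each plate held 27 to 93 cells. Cells had 96834 to 2780443 reads assigned to genes (median 827283) and a median of 9554 genes with a read. Tph2, which encodes the serotonin-synthesizing enzyme tryptophan hydroxylase 2, and Fev, a transcription factor of serotonin neurons, had a read in 100% of cells, and Slc6a4 in 99.8%. The study calls these cells Tph2+, and they were sorted by a label driven by Sert. The shares of Tph2 and Slc6a4 are thus no independent evidence of identity. Markers of other cell types were low: of 6 oligodendrocyte, 6 astrocyte, 6 microglia and 6 endothelial genes, 2, 1, 1 and 0 had a read in at least 5% of cells, and the endothelial cadherin gene Cdh5 was at 0 in every cell. The table held no second cell type, so no background share for the receptors could be measured. Because no label names an animal, each dissection counted as 1 sample. No p-value was computed, and plates show how far a value varied within a dissection.

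The bases upstream of 4 annotated start sites are shown, of Esr1, Esr2, Crhr2 and Trh. Esr1 and Esr2 were higher in cells with Crhr2. Thrb, whose windows are not shown, was higher in cells with Trh. The window of the first Esr1 start site lies in annotated exons and is not shown. The sequences are from RefSeq for GRCm38.p6, 5′ to 3′ on the gene's own strand, and end at the base before the start site or at the last base outside annotated exons. Capitals mark matches on either strand to 1 of 3 motifs. The TATA box was searched as TATAAA, which stands in 12.4% of 32851 promoter windows of 250 bases. The GC box was searched as GGGCGG, which stands in 32.7% of them. The hexamer bound by many nuclear receptors, thyroid hormone receptors among them, was searched as AGGTCA, which stands in 14.0%. The palindromic estrogen response element, present in 0.0639% of windows, and that of the glucocorticoid and progesterone receptors, present in 0.387%, had no match in the 4 windows.
Esr1 (second start site, chr10:4709908-4710154, + strand): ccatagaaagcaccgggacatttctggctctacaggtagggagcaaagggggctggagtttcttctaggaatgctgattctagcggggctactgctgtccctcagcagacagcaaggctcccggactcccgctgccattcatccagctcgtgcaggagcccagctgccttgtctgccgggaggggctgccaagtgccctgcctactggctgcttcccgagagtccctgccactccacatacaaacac
Esr2 (chr12:76177260-76177509, - strand): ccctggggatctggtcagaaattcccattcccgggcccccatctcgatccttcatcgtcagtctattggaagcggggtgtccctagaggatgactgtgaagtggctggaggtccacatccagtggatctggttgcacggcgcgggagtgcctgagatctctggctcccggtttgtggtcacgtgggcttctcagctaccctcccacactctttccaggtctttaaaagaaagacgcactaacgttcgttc
Crhr2 (chr6:55133017-55133266, - strand): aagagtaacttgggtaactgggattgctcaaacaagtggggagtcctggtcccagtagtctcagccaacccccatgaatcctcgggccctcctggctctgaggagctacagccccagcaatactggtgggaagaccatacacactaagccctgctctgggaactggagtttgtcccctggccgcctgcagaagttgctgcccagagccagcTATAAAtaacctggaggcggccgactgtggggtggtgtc
Trh (chr6:92244651-92244900, - strand): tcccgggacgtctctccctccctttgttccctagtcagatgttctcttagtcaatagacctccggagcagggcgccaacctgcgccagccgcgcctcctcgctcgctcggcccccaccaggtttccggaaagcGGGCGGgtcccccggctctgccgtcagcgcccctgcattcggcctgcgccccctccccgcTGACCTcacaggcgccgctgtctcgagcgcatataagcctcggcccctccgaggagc
The Crhr2 window held 1 TATA box match. The Trh window held 1 GC box match and 1 match to the hexamer. Of the Thrb windows, that of start site 1 held 1 match to the hexamer and 3 GC box matches. That of start site 2 held 1 TATA box match. A match to these letters describes the sequence and shows no binding.

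Nr3c1 and Thra were found in nearly every cell and the other receptors in part of the cells. Thra had a read in 997 of 999 cells (99.8%, exact 95% interval 99.3 to 100) and Nr3c1 in 975 (97.6%, 96.4 to 98.5). Intervals here and below are Clopper-Pearson intervals and hold counting error only. Pgr had a read in 624 cells (62.5%, 59.4 to 65.5), Nr3c2 in 534 (53.5%, 50.3 to 56.6), Esr2 in 425 (42.5%, 39.5 to 45.7), Esr1 in 363 (36.3%, 33.3 to 39.4) and Thrb in 116 (11.6%, 9.69 to 13.8). The lower shares were not mainly single reads: in cells with a read, the median number of reads was 13 for Esr1, 15 for Esr2, 13 for Pgr, 7 for Nr3c2 and 6 for Thrb. When each cell was thinned to 250000 reads, the expected shares were 31.9% for Esr1, 38.7% for Esr2, 56.1% for Pgr, 97.7% for Nr3c1, 44.4% for Nr3c2, 99.8% for Thra and 8.91% for Thrb.

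Levels are given in CPM, the reads of a gene scaled to a common total of reads on genes in each cell. Over the 16 plates, the plate mean ran from 131 to 187 CPM for Nr3c1 and from 85.1 to 160 CPM for Thra. It ran from 7.02 to 22.9 CPM for Pgr, from 3.50 to 19.4 CPM for Esr2, from 3.25 to 19.1 CPM for Nr3c2, from 1.99 to 12.0 CPM for Esr1 and from 0 to 3.06 CPM for Thrb. On the plate where Thrb was at 0, 0 of 30 cells had a read, with an interval up to 11.6%. At 3 counts, the limit that a count of 0 allows is 10.0%. Nr3c1 and Thra thus varied little between plates, and the rarer receptors varied more. Between cells the spread was wider. Nr3c1 had a middle range (25th to 75th percentile) of 95.2 to 204 CPM and Thra one of 85.9 to 156 CPM, and in cells with a read the median was 16.8 CPM for Pgr, 17.0 for Esr2, 15.4 for Esr1, 9.65 for Nr3c2 and 6.85 for Thrb. Single cells stood far out for Pgr, with 857 CPM in the highest cell and 85.1 CPM in the next, and for Nr3c2, with 423 and 222 CPM. Both highest cells were on the same all-DR plate (SER63), where leaving out the cell took the plate mean of Pgr from 22.9 to 12.4 CPM and that of Nr3c2 from 13.1 to 7.91 CPM.

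To compare genes with each other, plate means were divided by the length of the gene's merged exons. The order of these levels, in CPM per kilobase over 16 plates, was Thra 26.9, Nr3c1 20.0, Esr2 2.50, Pgr 1.51, Nr3c2 1.25, Esr1 0.588 and Thrb 0.152. The step from Nr3c1 to Esr2 was the only one between neighbours at which plate values did not overlap, with a lowest Nr3c1 plate of 17.1 and a highest Esr2 plate of 5.76 CPM per kilobase. Within plates, Thra was above Nr3c1 on 15 of 16, Esr2 above Pgr on 15, Pgr above Nr3c2 on 14, Nr3c2 above Esr1 on 13 and Esr1 above Thrb on 16. Esr2 was below Pgr per read and above it per kilobase, since its exons span 3368 bases and those of Pgr 8546. In GRCm38 the genes lie at chr10:4611593-5005614 (Esr1), chr12:76120419-76177259 (Esr2), chr9:8899833-8968611 (Pgr), chr18:39410545-39519421 (Nr3c1), chr8:76899442-77245012 (Nr3c2), chr11:98740638-98769006 (Thra) and chr14:17660261-18038090 (Thrb). Of the exon bases of Thra, 263 (5.70%) lie on the strand opposite to exons of Nr1d1, and of those of Nr3c2, 247 (3.82%) lie opposite to Gm10649. Counting ignored strand, so these levels are less certain there.

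**Figure D1:**
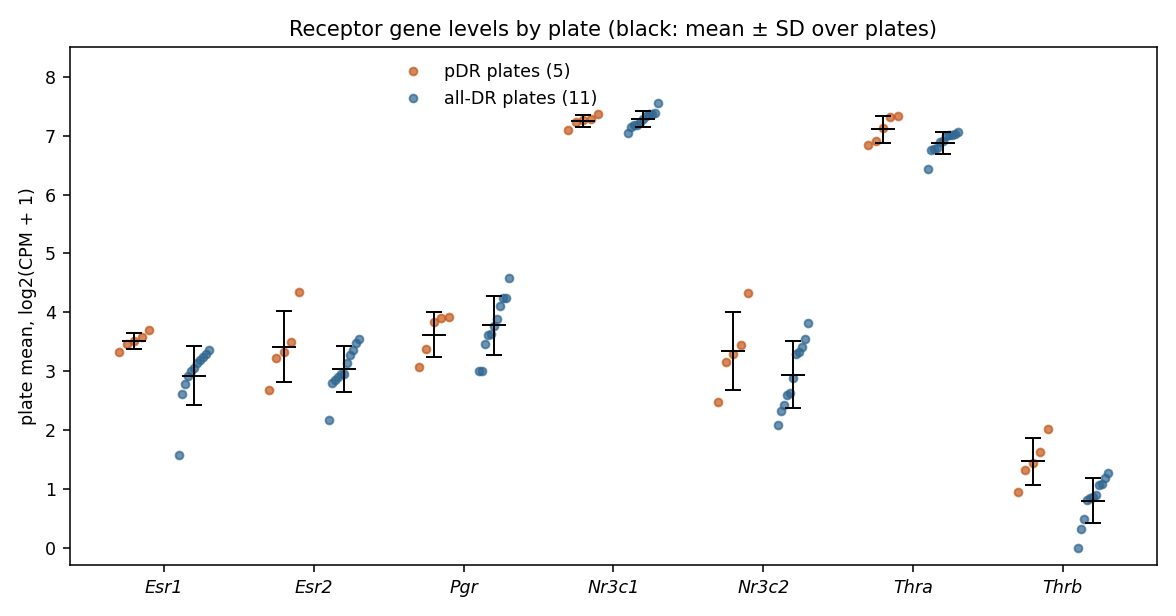
Mean level of each receptor gene on each plate, as log2(CPM + 1), for the 5 pDR plates (orange) and the 11 all-DR plates (blue), with black bars for the mean ± SD over plates. Nr3c1 and Thra stand above all other receptors on every plate, and the plates of the dissections overlap for each gene.

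Between dissections, Thrb was the only receptor gene past the rule used for all genes, a ratio of at least 1.5 between the plate averages after adding 1 CPM. By that rule 9.76% of 15856 genes were higher in the pDR and 6.62% were lower. Thrb averaged 1.85 ± 0.80 CPM (SD, n = 5 plates) in the pDR and 0.795 ± 0.43 CPM (SD, n = 11 plates) in all DR, a log2 ratio of 0.67, and the plates overlapped, with 0.919 to 3.06 CPM against 0 to 1.40 CPM. This call was lost when plate SER39 was left out, when the highest cell of each receptor was left out, with cells weighted equally and with 5 CPM added. The highest Thrb cell, at 50.6 CPM, was on that plate, whose mean was 3.06 CPM with it and 1.30 CPM without it.

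The other receptors differed by less than the 1.5-fold between dissections. Esr1 averaged 10.4 ± 1.12 CPM in the pDR (8.99 to 12.0) and 6.93 ± 2.06 CPM in all DR (1.99 to 9.29), a log2 ratio of 0.53, and 4 of the 5 pDR plates lay above every all-DR plate. It passed the rule only among cells with at least 500000 reads, at 0.62. Esr2 averaged 10.5 ± 5.29 CPM against 7.47 ± 2.10 CPM (log2 ratio 0.44), and Nr3c2 10.0 ± 5.43 against 7.21 ± 3.19 CPM (0.43). Each of these ratios rested on 1 plate. Without SER12, which had 19.4 CPM of Esr2, the ratio of Esr2 fell to 0.13, and without SER39, which had 19.1 CPM of Nr3c2, that of Nr3c2 fell to 0.10. Without SER40, which was low in both, the ratios were 0.59 and 0.60 and passed the rule. Thra was at 138 ± 22.0 against 117 ± 14.0 CPM (0.23), Pgr at 11.6 ± 3.06 against 13.5 ± 4.92 CPM (-0.20) and Nr3c1 at 151 ± 10.2 against 155 ± 15.3 CPM (-0.04). Plate means did not overlap between dissections for 0 of the 7 receptor genes, against 7.77% of all genes tested. Other measures moved with the dissection as well: the summed level of 10 immediate-early genes averaged 137 CPM on pDR plates (43.9 to 378) and 357 CPM on all-DR plates (275 to 419), and that of the 6 oligodendrocyte genes 15.2 CPM (3.66 to 34.2) and 64.7 CPM (8.13 to 341). Their part in the receptor values was not tested.

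Crhr2 encodes the type 2 receptor for corticotropin-releasing factor and the urocortins. It had a read in 406 cells, 40.3% of pDR cells and 40.8% of all-DR cells. On each plate, cells with and without a read of Crhr2 were compared, and a gene was called where the mean of the within-plate log2 ratios (CPM + 1) reached 1.5-fold and at least 75% of plates had the same sign. By this rule 1.56% of 15855 genes were higher and 2.33% lower in cells with Crhr2. Among the receptor genes, Esr1 and Esr2 were higher and 0 of 7 were lower.

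Esr2 was higher in cells with Crhr2 on 16 of 16 plates, with a mean log2 difference of 1.81 ± 0.87 (SD, n = 16 plates) and a range of 0.34 to 3.71. Its plate means had a lowest value of 10.4 CPM, a median of 14.1 and a highest of 27.1 CPM in cells with Crhr2, against 0.0210, 4.10 and 17.2 CPM in cells without. The plates overlapped because of SER12, which was high on both sides, at 22.0 and 17.2 CPM. A read of Esr2 was found in 67.0% of 406 cells with Crhr2 (62.2 to 71.6) and in 25.8% of 593 cells without (22.3 to 29.5). The difference averaged 1.81 on the pDR plates and 1.81 on the all-DR plates.

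Esr1 was higher in cells with Crhr2 on 15 of 16 plates, with a mean log2 difference of 1.41 ± 0.88 (-0.11 to 2.85). Plate means were 6.63 CPM at the lowest, 12.7 at the median and 24.0 at the highest with Crhr2, and 0.378, 3.96 and 8.69 CPM without. The exception was SER48, at 6.63 CPM with and 7.24 CPM without, where the share of cells with Esr1 was nevertheless higher with Crhr2 (50.0% against 19.2%). A read of Esr1 was found in 56.4% of cells with Crhr2 (51.4 to 61.3) and in 22.6% of cells without (19.3 to 26.2). Cells with Crhr2 had more reads on 15 of 16 plates and more genes detected on 16, so shares were also compared at 250000 reads per cell, where they were 49.9% against 19.5% for Esr1 and 61.3% against 23.2% for Esr2, each higher with Crhr2 on 16 of 16 plates.

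The other receptors differed less. Pgr had a mean log2 difference of 0.21 ± 0.57 and was higher with Crhr2 on 12 of 16 plates, although its share was higher on 16 of 16 (72.2% against 55.8%, and 64.4% against 50.4% after thinning). The differences were -0.07 for Nr3c1, -0.11 for Nr3c2, -0.11 for Thra and -0.27 for Thrb. For Nr3c1 the dissections parted: it was lower with Crhr2 on 5 of 5 pDR plates, at a mean of -0.42, and higher on 7 of 11 all-DR plates, at 0.10. This difference between dissections was not tested. The summed oligodendrocyte genes were at 11.8 CPM in cells with Crhr2 (2.45 to 22.0 over plates) and 72.4 CPM in cells without (3.37 to 515), and were higher with Crhr2 on 5 of 16 plates. The summed serotonin neuron markers were higher with Crhr2 on 16 of 16 plates. After the 45 cells with more than 100 CPM of glial and endothelial markers were left out, Esr1 and Esr2 were still past the rule.

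**Figure D2:**
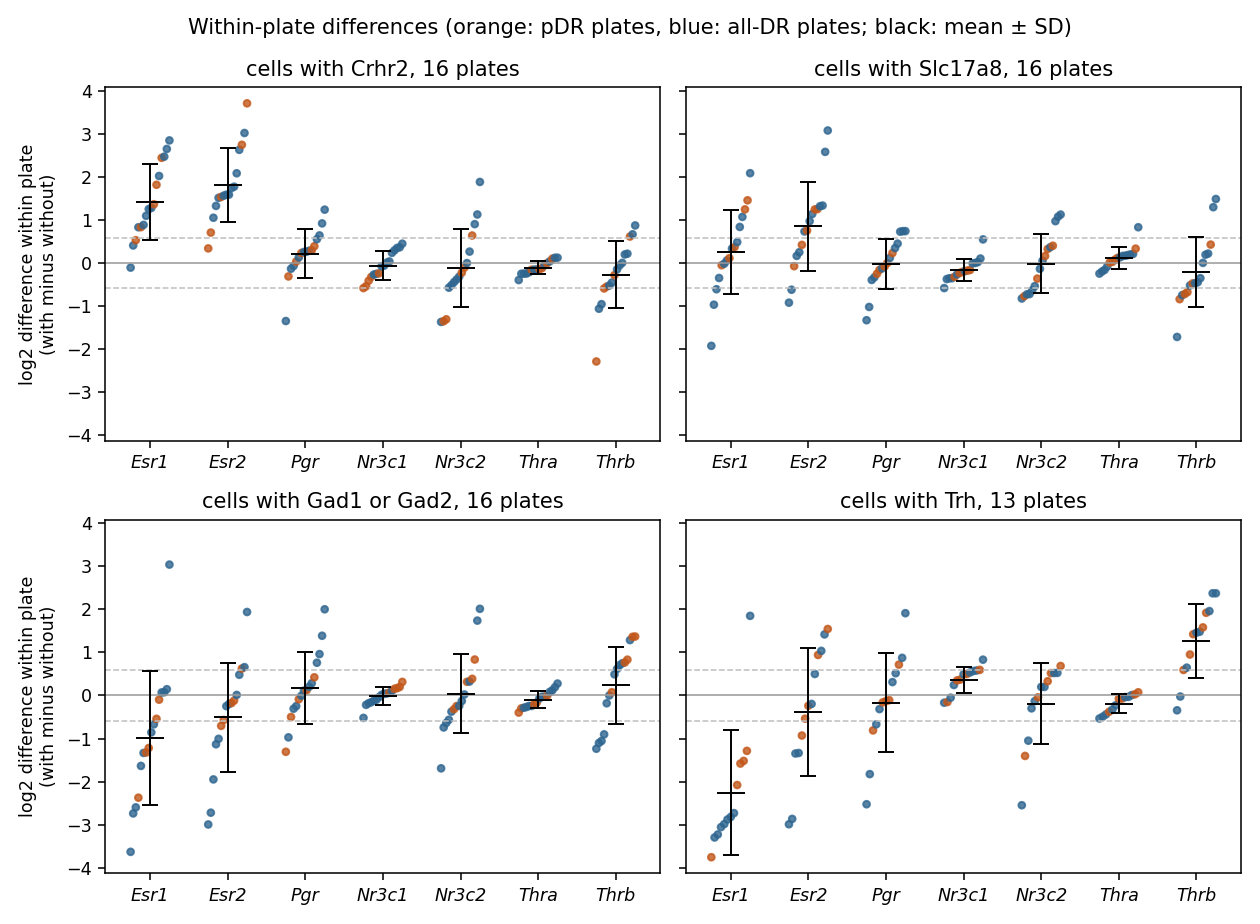
Difference of each receptor gene between cells with and without Crhr2, Slc17a8, Gad1 or Gad2, and Trh on the same plate, in log2(CPM + 1), with 1 point per plate, black bars for the mean ± SD over plates and dashed lines at 1.5-fold. Esr2 lies above 0 on all 16 plates for Crhr2, and Esr1 lies below 0 on 12 of 13 plates for Trh.

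Slc17a8 encodes the vesicular glutamate transporter 3 (Vglut3), which lets some serotonin neurons release glutamate as well. It had a read in 649 cells, 45.2% of the pDR and 73.1% of all DR. By the same rule 1.9% of genes were higher and 1.14% lower in cells with Slc17a8, and of the 7 receptor genes Esr2 alone was called, as higher. Its mean log2 difference was 0.85 ± 1.03, higher on 13 of 16 plates (-0.92 to 3.08). Plate means of Esr2 were 2.38, 8.22 and 25.5 CPM (lowest, median and highest) with Slc17a8 and 0, 5.27 and 14.8 CPM without, so the sides overlapped widely. A read of Esr2 was found in 48.1% of cells with Slc17a8 (44.2 to 52.0) and 32.3% of cells without (27.4 to 37.5), a difference in the same direction on 15 of 16 plates. The call was lost among cells with at least 500000 reads and with 5 CPM added, where the difference was 0.49. Esr1 differed by 0.26 ± 0.98 and was higher on 10 of 16 plates, and Nr3c1 was at -0.16, lower on 13 of 16 plates and on 5 of 5 in the pDR.

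Crhr2 and Slc17a8 were often in the same cells (344 cells had both), so each was also split within the other. These splits were chosen after the values above had been seen. Their shares count the cells of all plates, whereas the log2 differences use only the plates that could be compared. Among cells with Slc17a8, Esr1 was in 57.8% of those with Crhr2 and 15.1% of those without (mean log2 difference 1.78, higher on 14 of 16 plates), and Esr2 in 70.3% and 23.0% (1.61, 15 of 16). Among cells without Slc17a8, only 8 plates could be compared, and Esr1 was in 48.4% of 62 cells with Crhr2 and 30.6% of 288 without (-0.12, higher on 4 of 8 plates), and Esr2 in 48.4% and 28.8% (0.71, 6 of 8). Among cells without Crhr2, Esr1 was in 15.1% of those with Slc17a8 and 30.6% of those without, lower with Slc17a8 on 12 of 16 plates at -0.80, while Esr2 was at 0.33 and higher on 11 of 16, although its share was lower with Slc17a8 (23.0% against 28.8%). Among cells with Crhr2, Esr1 was higher with Slc17a8 on 6 of 8 plates (1.29, 57.8% against 48.4%), and Esr2 on 6 of 8 (0.90, 70.3% against 48.4%). The difference of Esr1 with Slc17a8 thus pointed up among cells with Crhr2 and down among cells without.

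**Figure D3:**
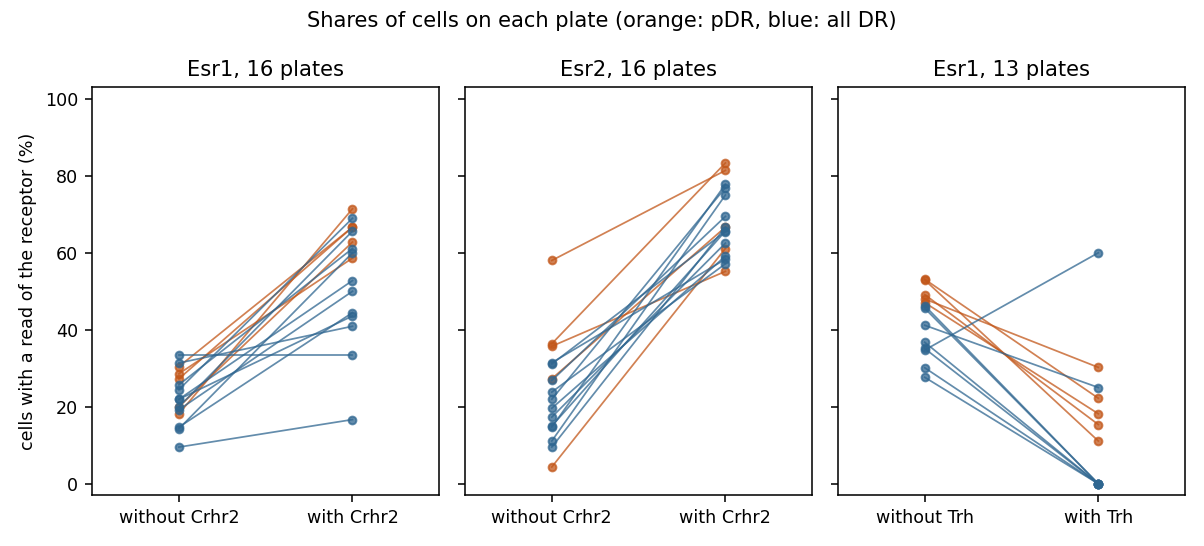
Share of cells with a read of Esr1 or Esr2 on each plate, joined by a line between cells without and with Crhr2 (left and middle) and, for Esr1, without and with Trh (right), orange for pDR and blue for all-DR plates. The share of Esr2 was higher with Crhr2 on 16 of 16 plates, and that of Esr1 was higher with Trh on 1 of 13.

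Gad1 and Gad2 encode the glutamate decarboxylases that make GABA. A read of either was found in 347 cells, 63.1% of the pDR and 23.1% of all DR. By the rule 1.39% of genes were higher and 1.54% lower in these cells, and Esr1 was called as lower, with a mean log2 difference of -0.98 ± 1.55 (-3.63 to 3.04). Esr1 was lower on 12 of 16 plates, which is exactly the share the rule asks for, and leaving out any of those 12 plates ended the call. It was lower on 5 of 5 pDR plates (mean -1.11) and on 7 of 11 all-DR plates (-0.92). Plate means were 0, 5.66 and 10.1 CPM (lowest, median and highest) with Gad and 0.0400, 8.62 and 19.4 CPM without, and a read was found in 28.0% (23.3 to 33.0) against 40.8% of cells (37.0 to 44.7). Esr2 had the same direction but was not called, at -0.51 ± 1.27 and lower on 11 of 16 plates, with a read in 34.6% against 46.8% of cells. Thrb was at 0.24 ± 0.90. It was higher with Gad on 5 of 5 pDR plates, at a mean of 0.88, and on 5 of 11 all-DR plates, at -0.06, a difference that was not tested.

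Trh encodes thyrotropin-releasing hormone, the peptide that drives the thyroid axis from the hypothalamus, where thyroid hormone lowers its transcription. In these cells it had a read in 138 cells, 33.8% of the pDR and 5.64% of all DR, and 126 of them also had Gad1 or Gad2. On the 13 plates with at least 3 cells on each side, 2.29% of genes were higher and 6.96% lower in cells with Trh. Of the receptors, Thrb was called as higher and Esr1 as lower.

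Thrb had a mean log2 difference of 1.26 ± 0.86 with Trh and was higher on 11 of 13 plates (-0.34 to 2.37). Plate means were 0, 3.64 and 8.13 CPM (lowest, median and highest) with Trh and 0.224, 0.760 and 1.40 CPM without, and on 1 of the 13 plates no cell with Trh had Thrb. A read of Thrb was found in 26.5% of 136 cells with Trh (19.3 to 34.7) and 9.74% of 729 cells without (7.68 to 12.1), and the thinned shares were 22.4% and 7.10%. The mean difference was 1.29 on pDR plates, higher on 5 of 5, and 1.24 on all-DR plates, higher on 6 of 8. With 5 CPM added the difference was 0.57 and no longer past the fold. Among cells with Gad the difference between those with and without Trh was 1.22, higher on 9 of 12 plates, whereas among cells without Trh Thrb had a read in 9.05% of cells with Gad and 9.22% of cells without (-0.25, higher on 6 of 16 plates).

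Esr1 was lower in cells with Trh on 12 of 13 plates, with a mean log2 difference of -2.26 ± 1.45 (-3.76 to 1.85). Plate means were 0, 0.0891 and 24.5 CPM (lowest, median and highest) with Trh and 5.65, 8.85 and 15.2 CPM without. The exception was SER64, where 3 of 5 cells with Trh had Esr1. A read of Esr1 was found in 19.1% of cells with Trh (12.9 to 26.7) and 40.7% of cells without (37.1 to 44.4). It was lower with Trh on 5 of 5 pDR plates, at -2.05, and on 7 of 8 all-DR plates, where 3 to 6 cells with Trh were on a plate. Of the 138 cells with Trh, 31 had Crhr2, and among cells without Crhr2, Esr1 was lower with Trh on 12 of 12 plates (-2.17). Esr2 did not follow: its difference with Trh was -0.39 ± 1.49, and it had a read in 47.8% of cells with Trh and 42.9% of cells without. Nr3c1 was at 191 CPM with Trh and 147 CPM without (0.36 ± 0.31, higher on 10 of 13 plates), under the fold. Pgr was at -0.17, Nr3c2 at -0.19 and Thra at -0.19.

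Slc17a8 and Gad together give 4 classes of cells: 513 with Slc17a8 alone, 211 with Gad alone, 136 with both and 139 with neither. Esr2 had a read in 49.9% of cells with Slc17a8 alone (45.5 to 54.3), 41.2% of those with both (32.8 to 49.9), 35.3% of those with neither (27.3 to 43.8) and 30.3% of those with Gad alone (24.2 to 37.0). Esr1 was in 40.4% of cells with Slc17a8 alone (36.1 to 44.7) and 42.4% of those with neither (34.1 to 51.1), and in 27.9% and 28.0% of the classes with Gad. Pgr lay between 56.6% and 66.4% in the 4 classes and Nr3c2 between 46.3% and 59.7%, and neighbouring classes overlapped in their intervals. Thrb had its highest share in cells with Gad alone, 16.1% (11.4 to 21.8), and its lowest in cells with neither, 7.91% (4.02 to 13.7). The dissections made up these classes unequally, with 136 of the 211 cells with Gad alone and 84 of the 513 with Slc17a8 alone from the pDR, and the order differed within them. In the pDR, Esr1 was in 57.1% of cells with Slc17a8 alone, 40.4% of those with both, 39.1% of those with neither and 30.9% of those with Gad alone, whereas in all DR the classes with Gad were at 21.3% (both) and 22.7% (Gad alone) and those without at 37.1% and 43.1%. Thrb in the pDR was in 21.3% of cells with both, 18.4% of those with Gad alone and 0 of 23 with neither, and in all DR all 4 classes lay between 9.48% and 12.0%. Esr2 was lowest in cells with Gad alone in both, at 37.5% and 17.3%.

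**Figure D4:**
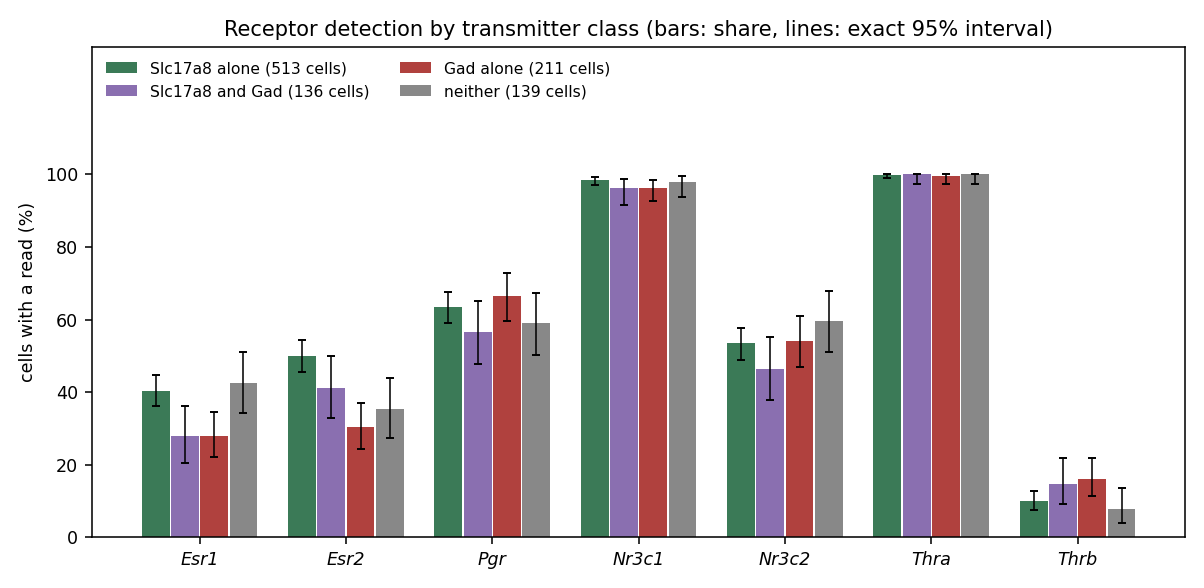
Share of cells with a read of each receptor gene in cells with Slc17a8 alone, Slc17a8 and Gad, Gad alone, or neither, with lines for the exact 95% interval. Over both dissections Esr1 is near 28% in both classes with Gad and at 40.4% and 42.4% in the classes without, an order that did not hold within the pDR, and Nr3c1 and Thra are above 96% in all 4.

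The receptors were also compared across 10 further markers of raphe serotonin neuron groups, which with the 4 splits above gave 98 comparisons of a receptor with a marker. Of these, 25 passed the rule, 9 as higher and 16 as lower, where 6.05% of all pairs of a tested gene and a marker did. Markers shared cells: 344 cells had Crhr2 and Slc17a8, 126 had Trh and Gad, and 90 had Met and Piezo2. The 98 comparisons were thus not independent, and the same cells can count in several of the calls. Esr1 passed in 10 of 14 splits, Esr2 in 8, Pgr, Nr3c1 and Nr3c2 in 2 each, Thrb in 1 and Thra in 0. Unlike with Trh, the estrogen receptors were higher with the neuropeptide genes Gal and Pdyn: with Gal, the gene of galanin, by 0.81 (Esr1, 14 of 16 plates) and 1.19 (Esr2, 15 of 16), where 0.833% of all genes were higher, and with Pdyn, the gene of dynorphin, by 0.87 and 1.31 (14 of 15 plates each), where 1.3% were. Esr2 was also higher with Npy2r, a neuropeptide Y receptor, by 0.77 on 14 of 15 plates (background 0.965%), and Esr1 reached 0.53 there. Cells with these markers also had more genes detected, on 16 of 16 plates with Gal, 15 of 15 with Npy2r and 13 of 15 with Pdyn, and more reads on 16, 12 and 10 plates. Their summed serotonin neuron markers were higher on 16, 14 and 13 plates, and the summed oligodendrocyte genes were at 13.1 against 71.5 CPM with Gal, and the part of these differences was not tested. Esr1 was lower with Sox14, a transcription factor gene, with a mean log2 difference of -1.42 on 14 plates (background 6.41%), and with Dlk1, which encodes a membrane protein related to Notch ligands, at -0.67 on 16 plates (1.13%). Npas3 and Irx2, both transcription factor genes, gave no call for any receptor, where 2.57% and 5.51% of all genes were called in either direction, although Esr2 was at -0.93 with Irx2 and lower on 8 of 12 plates.

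In cells with Met, the gene of the hepatocyte growth factor receptor, 5 of the 7 receptors were lower, where 10.5% of all genes tested were. Met had a read in 118 cells, of which 117 came from all-DR plates, and 11 all-DR plates were compared. Esr2 was at 0.618 CPM in cells with Met and 8.92 CPM in cells without and lower on 11 of 11 plates (-2.74), with a read in 6.84% against 45.9% of cells. Esr1 was at 1.42 against 8.02 CPM (-2.16, lower on 11 of 11), Nr3c2 at 2.14 against 8.15 CPM (-1.89, lower on 9 of 11) and Pgr at 4.80 against 15.3 CPM (-1.77, lower on 10 of 11). Nr3c1 was still read in 98.3% of cells with Met, at a lower level: its plate means ran from 63.5 to 129 CPM with Met and from 151 to 199 CPM without, with no overlap, and a mean log2 difference of -0.99. Thra went the other way, at 144 against 110 CPM and higher on 10 of 11 plates, with a difference of 0.36 that was under the fold. Thrb was at -0.36. Reads per cell were higher with Met on 6 of 11 plates and genes detected on 4 of 11.

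Met and Piezo2, which encodes a mechanically gated channel, were in the same cells in 90 cases. With Piezo2, where 10.3% of all genes were lower, Esr2 (-2.15) and Esr1 (-1.85) were lower on 13 of 13 plates, Nr3c2 on 12 of 13 (-2.06) and Pgr on 11 of 13 (-0.93). Nr3c2 had a read in 15.0% of cells with Piezo2 and 61.6% of cells without. With Tacr3, the gene of the neurokinin B receptor, found in 57 cells, Esr2 (-2.92) and Nr3c1 (-1.83) were lower on 9 of 9 plates and Esr1 (-1.67) on 7 of 9, against 10.6% of all genes. Nr3c1 was at 53.0 CPM with Tacr3 and 166 CPM without and had a read in 75.0% against 98.8% of cells. Cells with Tacr3 also had lower summed serotonin neuron markers on 9 of 9 plates (15550 against 21738 CPM), fewer genes detected on 8 of 9 and fewer reads on 7 of 9, whose part was not tested. Nr3c2, lower with Met and Piezo2, was at 9.88 CPM with Tacr3 and 7.56 CPM without (0.07).

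**Figure D5:**
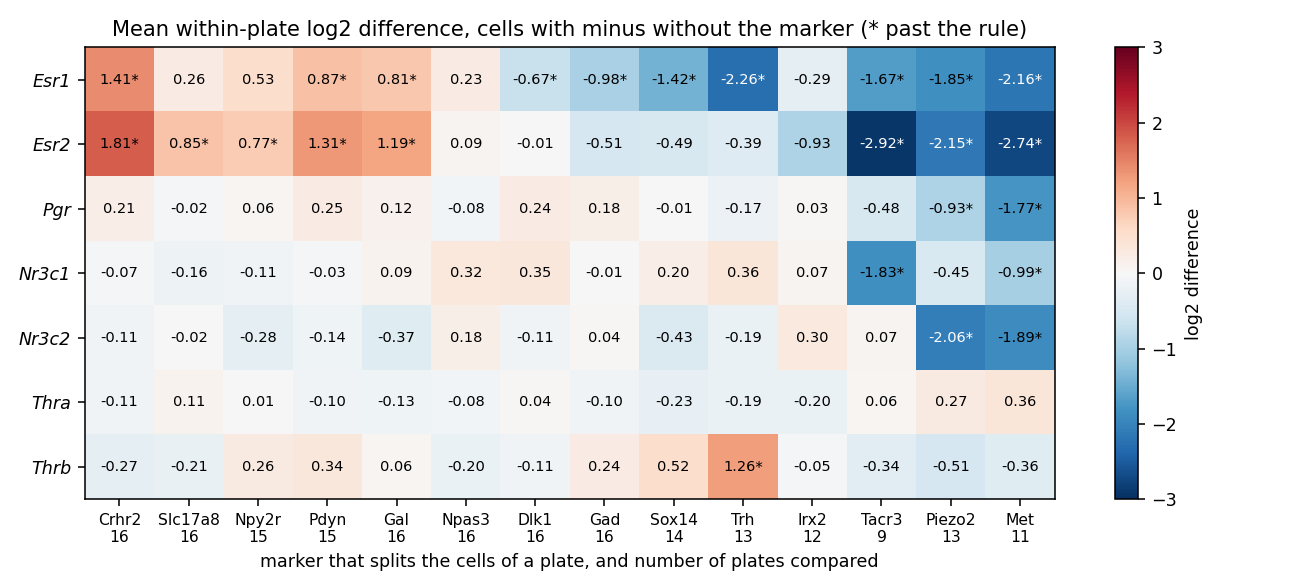
Mean within-plate log2 difference of each receptor gene (rows) between cells with and without each of 14 markers (columns, with the number of plates compared), red for higher and blue for lower with the marker, and an asterisk where the rule was met. Esr1 and Esr2 carry most of the called differences, and the columns of Met and Piezo2 are negative for every receptor but Thra.

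The differences with Met were also taken within other splits, which were again chosen after the values were seen. Of the 118 cells with Met, 96 had Slc17a8 and 14 had Crhr2. Cells with Slc17a8 and cells without Crhr2 thus held most of the same cells with Met, so these values are no separate evidence. Among cells with Slc17a8, Esr2 was lower with Met on 11 of 11 plates (-2.79), Pgr on 11 of 11 (-1.77) and Nr3c1 on 11 of 11 (-0.98). Among cells without Crhr2, Nr3c2 had a read in 7.69% of 104 cells with Met (3.38 to 14.6) and in 61.1% of 489 without (56.7 to 65.5). These shares count the cells of both dissections. When the 186 cells with Met, Piezo2 or Tacr3 were left out, Esr1 and Esr2 were still higher with Crhr2, by 1.27 on 14 of 16 plates and by 1.62 on 16 of 16. Nr3c1 was then lower with Crhr2 on 16 of 16 plates, at 154 against 183 CPM (-0.27), and Thrb stayed higher with Trh, by 1.19 on 11 of 12 plates.

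Pairs of receptors were weakly related in single cells. After subtraction of plate means, the highest correlation of ln(CPM + 1) over the 999 cells was between Esr1 and Esr2 (r = 0.24), which share the libraries of their cells, and the other 20 pairs were at or under 0.12. Esr2 had a read in 59.2% of cells with Esr1 (54.0 to 64.3) and 33.0% of cells without (29.4 to 36.8). Esr1 or Esr2 had a read in 80.8% of cells with Crhr2 and 41.3% of cells without, and both had one in 42.6% and 7.08%. Of Esr1, Esr2 and Pgr, 170 cells had all 3 (17.0%) and 195 had none (19.5%). Pgr, a known target of estrogen receptors in other tissues, was in 72.5% of cells with Esr1 (67.5 to 77.0) and 56.8% of cells without (52.8 to 60.7), and in 70.6% of cells with Esr2 and 56.4% without, with correlations of 0.12 and 0.06. Nr3c2 had a higher share as well, with 58.7% against 50.5% for Esr1 and 60.9% against 47.9% for Esr2. The shares in this paragraph were not thinned to a common depth, and the part of depth in them was not tested.

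The genes most like each receptor were sought over all 15856 genes by the same correlation over the 999 cells, and are named where the highest reached 0.3. Esr1 was most like Crhr2 (r = 0.39), Cacng5 (0.38), which encodes a subunit associated with AMPA receptors, and Spsb1 (0.37). Esr2 was most like Htr5b (0.44), which encodes a serotonin receptor, Crhr2 (0.44) and Cbln4 (0.40), which encodes a cerebellin. Nr3c1 was most like Pea15a (0.58), Ncald (0.54), which encodes a calcium sensor, and Tmem255a (0.50). These values rested mostly on all-DR cells, where they were 0.65, 0.60 and 0.53, against 0.32, 0.16 and 0.31 in pDR cells. Thra was most like Hectd4 (0.31), with Nsf and Pebp1 at 0.29. The highest values for Pgr, Nr3c2 and Thrb were 0.19, 0.25 and 0.23, and no gene is named for them.

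Genes of the hormone pathways were taken from lists, and those named in this paragraph for their role were picked with their values in view. Among 11 other hormone receptors, the retinoid X receptors, which pair with thyroid hormone receptors, had a read in 43.3% (Rxra), 91.4% (Rxrb) and 37.6% of cells (Rxrg). Gper1, the membrane estrogen receptor, had a read in 2 of 999 cells. Of the listed genes of hormone entry and conversion, Crym, which binds thyroid hormone in the cytosol, had a read in 32.3% of cells, and Srd5a1 and Hsd17b4, both enzymes of steroid metabolism, in 35.7% and 93.6%. Cyp19a1, the aromatase that makes estrogen, had a read in 1 of 999 cells, Dio2, which activates thyroid hormone, in 9, and Hsd11b2, which inactivates corticosteroids, in 9. The receptor chaperones were abundant, with Hsp90aa1, Hsp90ab1 and Hspa8 in 100% of cells.

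With Crhr2, 1.56% of all genes tested were higher and 2.33% lower. Of 9 tested estrogen-responsive genes, a list that holds Pgr itself, 3 were higher and 0 lower. These were Gal by 2.62 on 16 of 16 plates, Cited1, a coactivator gene, by 1.63 on 16 of 16 and Greb1 by 1.02 on 15 of 16. Gal is also 1 of the 10 further markers of serotonin neuron groups used above. The list had a median log2 difference of 0.31 with Crhr2, against -0.03 over all genes tested. The same medians lay closer together with Slc17a8 (0.09 against 0.02), Gad (0.02 against -0.02) and Trh (-0.12 against -0.09). Rxrg, 1 of 9 tested other hormone receptors, was higher by 0.78 on 15 of 16 plates, and Crym was lower by -0.70. None of 11 glucocorticoid-responsive genes and none of 10 chaperones was called with Crhr2. With Slc17a8, where 1.9% of all genes were higher and 1.14% lower, 2 of the 9 estrogen-responsive genes were higher. These were Cited1 by 1.62 and Oxtr, the oxytocin receptor gene, by 1.13. Thrsp, 1 of 5 tested thyroid hormone-responsive genes, was lower by -0.65. With Gad, 1.39% of all genes were higher and 1.54% lower. Thrsp was higher by 1.22 and Crym by 1.14, and Cited1 (-1.25) was lower.

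With Trh, 2.29% of all genes were higher and 6.96% lower. Crym was at 62.3 CPM with Trh against 9.63 CPM without and higher on 12 of 13 plates (2.37). Of 5 tested thyroid hormone-responsive genes Thrsp was higher (0.67), and of 11 glucocorticoid-responsive genes Sgk1, a kinase gene, was higher (0.71). Among 14 coregulators Nrip1 was higher (0.72) and Kat2b (-0.81) and Tbl1xr1 (-0.70) were lower. Of 9 estrogen-responsive genes, Oxtr (-1.98), Cited1 (-1.97) and Greb1 (-0.59) were lower. Serotonin neuron markers were higher on 13 of 13 plates in their summed level, and Fev was higher by 0.75.

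Between dissections, where 9.76% of all genes were higher in the pDR, 6.62% were lower and 7.77% did not overlap over plates, 4 of 14 coregulators were higher in the pDR, with Ncoa3 (log2 ratio 1.31) and Crebbp (0.68) not overlapping over plates, and 4 of 11 glucocorticoid-responsive genes were higher, with Cdkn1a (1.05) and Sgk1 (0.82) not overlapping. Of 9 estrogen-responsive genes, 3 were lower, among them Oxtr at 8.67 against 24.2 CPM and Cited1 at 107 against 217 CPM, neither overlapping. The chaperone gene Ptges3 was higher, at 391 against 195 CPM. Of the 10 immediate-early genes 7 were lower in the pDR, and their part in these values was not tested.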

How the data were processed

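Single sorted cells were sequenced by the authors as 75-base read pairs after demultiplexing with bcl2fastq 2.19.0.316, aligned to mm10 with STAR 2.6.1a and counted on genes without regard to strand with HTSeq 0.11.2, according to the submitters' processing notes and the study's methods. Genes of the Y chromosome had been removed, and the annotation version is not given in the sources used here. The authors deposited CPM values, not log-transformed. Dividing each cell by its smallest step returned whole reads (tolerance 0.001) for 100% of values above 0, from which depth and cells with a read were taken. No count test was run, since each dissection is 1 sample, and 0 columns of the table lacked a label. Of the 1536 labelled cells, 537 were not analysed here. All 999 cells in the table were used, and no program for doublets was run, as cells were sorted singly.

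Plate means of CPM were compared between dissections with plates weighted equally, and between cells with and without a marker within each plate with at least 3 cells on each side, as log2 ratios with 1 CPM added. Tested genes had a read in at least 5% of cells (15856). The software was Python 3.11.15 (pandas 2.3.3, NumPy 2.4.6, SciPy 1.17.1, matplotlib 3.10.9). The comparisons were run on simulated data with changes larger than the fold of the rule, in genes above the level of Thrb. Recovery of smaller differences, of rarer genes or with few cells on a side was not tested. Lengths and coordinates came from GENCODE M21, and upstream sequences from RefSeq, which held none for Thra and Nr3c1.

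The 7 receptors, the markers and the gene lists were chosen with earlier results of these data known. Genes named are the receptors, the markers, called genes of the lists (at most 4 per comparison by size) and the 3 genes most like a receptor where the highest correlation reached 0.3. Uncalled list genes named for their role, and splits within other splits, were picked after the values were seen. Alternatives tried were 0.1 and 5 CPM added, summed reads, genes read in at least 3 cells, cells with at least 500000 reads, cells without glial markers, a marker cut of 10 CPM, 5 cells a side, equal weight of cells and each plate left out. Results for some listed genes are not reported here.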

Additional observations from a re-analysis of the deposited data

Results flagged for a closer look

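Pgr with Piezo2 went in opposite directions in the dissections. Pgr was higher in cells with Piezo2 on 2 of 2 pDR plates, with a mean log2 difference of 0.946, and lower on 11 of 11 all-DR plates, with a mean of -1.27. The difference between dissections was not tested. Each of the 2 pDR plates had 3 cells with Piezo2, and in all 10 pDR cells had a read of Piezo2 against 121 all-DR cells. No receptor gene had a pDR plate far enough from the other 4 to be flagged.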

How the results depend on the processing

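Adding 0.1 CPM in place of 1 CPM before taking logs raised the number of genes past the rule from 2598 to 4405 between dissections, from 617 to 991 with Crhr2, from 481 to 923 with Slc17a8, from 464 to 828 with Gad and from 1466 to 2382 with Trh, and adding 5 CPM lowered them to 1231, 234, 162, 169 and 568. The balance of higher to lower genes moved by more than 10 percentage points in 4 of these, from 301 and 180 to 674 and 249 with Slc17a8 at 0.1 CPM, from 220 and 244 with Gad to 297 and 531 at 0.1 CPM and 101 and 68 at 5 CPM, and from 363 and 1103 to 247 and 321 with Trh at 5 CPM. Under every other alternative these counts stayed within 1.5 times the values reported. Leaving out 1 plate at a time gave 2205 to 3016 genes between dissections, 536 to 581 with Crhr2, 397 to 462 with Slc17a8, 365 to 435 with Gad and 1466 to 1646 with Trh. With 15 plates left, 75% of plates means 12 of 15, a stricter demand than 12 of 16.

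The called receptor differences between dissections and with Crhr2, Slc17a8, Gad and Trh kept their direction under the alternatives run, and those with the 10 other markers were not run under any. Over 24 alternatives, the difference with Crhr2 ran from 0.92 to 1.67 for Esr1 and from 1.15 to 2.24 for Esr2 and was past the rule in all. With Trh, Esr1 ran from -4.07 to -1.07 and was past the rule in all, and Thrb ran from 0.57 to 1.80 and was past it in 23. Esr2 with Slc17a8 ran from 0.49 to 1.19 and was past it in 22, and Esr1 with Gad ran from -1.25 to -0.60 and was past it in 12. Thrb between dissections ran from 0.24 to 1.12 and was past the rule in 19 of 23. Leaving out the highest cell of each receptor was added after the data were seen. The share of cells with Esr1 was 28.9% with at least 5 reads required and 23.7% with at least 10 CPM, that of Esr2 35.4% and 29.1%, of Pgr 50.3% and 43.5%, of Nr3c2 35.6% and 26.1% and of Thrb 6.81% and 4.10%. For Thrb and for markers with 3 to 6 cells on a plate, the number of cells limits the precision. No paired analysis was possible because the dissections share no plates and no animals are labelled, and comparisons by marker were made within plates from the start.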
